A study of Mus musculus with 18 samples.

Results

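The protein 4.1 genes *Epb41*, *Epb41l1*, *Epb41l2* and *Epb41l3* were followed in reprogramming mouse embryonic fibroblasts, 4 genes of the 9435 and 9472 listed in the deposited expression tables and 305 of the 661941 events in the splicing table. The family was selected on the knockdown values of 1 *Epb41l1* exon, so values of knockdown against scrambled control are given below as descriptions, with no test. All 18 libraries came from primary embryonic fibroblasts of the genotype Collagen-OKSM, M2rtta+, in which doxycycline switches on OCT4, SOX2, KLF4 and MYC. In the knockdown dataset, non-infected cells at day 0 (NI) were set beside cells at day 12 that carried a lentiviral scrambled shRNA (shSCR), either of 2 shRNAs against *Cpsf3* (shCPSF3#1, shCPSF3#2) or either of 2 against *Hnrnpul1* (shUL1#1, shUL1#2). In the overexpression dataset, NI cells at day 0 were set beside day 12 cells with a retroviral empty vector (Empty) or a T7-tagged TIA1 cDNA (T7-TIA1). Each of the 9 groups held 2 libraries. Infected cells were sorted for GFP and moved onto irradiated feeders after day 0, so time with doxycycline, infection, sorting and feeders cannot be told apart in a day 12 against day 0 comparison. A time label of shUL1#2 and of the overexpression NI libraries went against their titles, and the titles were used.

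Protein 4.1 members are adaptors under the plasma membrane. A FERM domain holds the tails of membrane proteins, a spectrin-actin-binding domain joins the spectrin and actin skeleton, and a C-terminal domain binds further partners. The products are known as 4.1R (*Epb41*, first described in red blood cells), 4.1N (*Epb41l1*, prominent in neurons), 4.1G (*Epb41l2*, broadly expressed) and 4.1B (*Epb41l3*, found in brain and in adhesive cells). Their transcripts are built from many alternative exons, and exon choice in *Epb41* is a textbook case of splicing that changes as red cells and epithelia differentiate.

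The knocked down or overexpressed genes followed their labels. Expression is given as scaled CPM, the deposited CPM after the authors scaled each library. *Cpsf3* lay at 38.6 to 77.1 scaled CPM in the 4 shCPSF3 libraries and at 86.7 to 118 with shSCR. *Hnrnpul1* lay at 38.7 to 85.8 in the 4 shUL1 libraries and at 156 to 185 with shSCR, and *Tia1* at 469 to 613 with T7-TIA1 and at 77.0 to 85.6 with Empty. The knockdown libraries also differed in genes that were not their target. *Tia1* was at 82.4 to 113 in the shCPSF3 and shUL1 libraries and at 66.7 to 69.7 with shSCR. *Hnrnpul1* was at 118 to 131 in shCPSF3#1 and at 133 to 166 in shCPSF3#2. *Cpsf3* was at 74.2 to 88.5 in the shUL1 libraries, which overlapped shSCR. The part of these shifts in the values below was not tested. Of 12 fibroblast markers 10 were listed, and their summed level was 19791 to 23289 scaled CPM in NI, 12134 to 13655 in shSCR, 22027 to 36664 in shCPSF3 and 21165 to 37023 in shUL1 libraries. The overexpression libraries gave 21235 to 47983 in NI, 11329 to 13621 in Empty and 10262 to 11091 in T7-TIA1 libraries. The 4 listed epithelial markers of 12 summed to 51.2 to 64.3 in NI, 413 to 695 in shSCR, 55.8 to 285 in shCPSF3 and 109 to 314 in shUL1 libraries, and the 3 listed macrophage markers of 6 to 9.57 to 10.6, 171 to 300, 429 to 1814 and 259 to 1000 in the same order. The overexpression table listed 1 epithelial and 0 macrophage markers. The 2 listed neural markers of 4, *Tubb3* and *Nes*, summed to 222 to 293 in NI, 51.3 to 61.3 in shSCR and 59.3 to 79.3 in the knockdown libraries, and 3 in the overexpression table to 197 to 260 in NI, 94.2 to 100 in Empty and 117 to 172 in T7-TIA1. *Tek*, the 1 listed endothelial marker of 4, was at 1.15 to 1.51 in NI, 25 to 29.7 in shSCR and 18.3 to 143 in the knockdown libraries. Of the 10 pluripotency markers none was listed in either table. Only genes at the study's minimum level and variability were listed, so this does not show that the markers were off. The paper measured a rise of *Pou5f1* and *Nanog* by RT-qPCR during this reprogramming. The part of these cell type differences in the values below was not tested, and in bulk RNA fewer cells of a type cannot be told apart from less RNA per cell.

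Per kilobase of annotated exon, *Epb41l2* and *Epb41l3* stood highest in NI cells of the knockdown dataset, at 26.0 ± 2.18 and 26.2 ± 1.77 scaled CPM per kb (SD, n = 2), a difference smaller than their spread. *Epb41l1* followed at 7.61 ± 0.850 and *Epb41* at 2.91 ± 0.332. In shSCR cells at day 12 the order was *Epb41l2* at 25.9 ± 1.19, *Epb41l3* at 9.91 ± 5.55, *Epb41l1* at 4.66 ± 0.0218 and *Epb41* at 4.11 ± 0.446 scaled CPM per kb. *Epb41l3* and *Epb41l1* differed by less than the SD of *Epb41l3* there, and *Epb41l1* and *Epb41* by little more than the SD of *Epb41*. The length was the union of exons over all annotated transcripts, 15.9 kb for *Epb41* and 11.5 kb for *Epb41l1*. Before division *Epb41*, at 65.5 ± 7.11 scaled CPM, stood above *Epb41l1*, at 53.8 ± 0.251, in shSCR. In NI cells of the overexpression dataset *Epb41l3* stood at 33.3 ± 4.54 and *Epb41l2* at 24.2 ± 1.26, a gap larger than their spread, followed by *Epb41l1* at 8.62 ± 1.92 and *Epb41* at 2.56 ± 0.399 scaled CPM per kb. In Empty cells *Epb41l2* stood at 27.2 ± 1.25, *Epb41l3* at 6.05 ± 0.349, *Epb41* at 3.92 ± 0.246 and *Epb41l1* at 3.73 ± 0.118, the last pair in the reverse of their order in shSCR but closer than the SD of *Epb41*.

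*Epb41*, which encodes 4.1R, was the member with more mRNA at day 12 in control cells. It was listed at 50.2 and 42.7 scaled CPM in the knockdown NI libraries and at 60.5 and 70.6 in shSCR. Among overexpression libraries it was at 36.3 and 45.3 in NI and at 65.3 and 59.7 in Empty. The libraries of day 0 and day 12 did not overlap in either dataset. The log2 difference was 0.49 ± 0.14 (SE, adjusted p = 0.0215) with shSCR and 0.61 ± 0.14 (adjusted p = 0.0183) with Empty, by limma on log2(scaled CPM + 1) with Benjamini-Hochberg adjustment over all genes of the table.

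*Epb41l1*, the gene of 4.1N, had less mRNA at day 12. Its libraries stood at 80.8 and 94.7 scaled CPM in NI against 53.6 and 53.9 in shSCR, and at 115 and 83.8 in NI against 42.1 and 44.0 in Empty. Neither pair of groups overlapped. The log2 difference was -0.69 ± 0.18 with shSCR (limma, adjusted p = 0.0150) and -1.17 ± 0.17 with Empty (adjusted p = 0.00470).

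*Epb41l3*, the gene of 4.1B, showed the widest range of the 4 members. In the overexpression dataset it was at 435 and 359 scaled CPM in NI, at 69.1 and 75.0 in Empty and at 117 and 92.9 in T7-TIA1. Empty was 5.42-fold lower than NI on the log2(scaled CPM + 1) scale, a log2 difference of -2.44 ± 0.16 (limma, adjusted p = 9.82e-04). In the knockdown dataset NI stood at 328 and 298 and shSCR at 165 and 71.4, with a log2 difference of -1.52 ± 0.64 that missed the threshold (limma, adjusted p = 0.0876) and was -2.11 without shSCR replicate 1 and -0.92 without shSCR replicate 2. The shSCR libraries differed from each other more than the NI libraries did, and neither reached the NI range.

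*Epb41l2*, the gene of 4.1G, did not pass the test in either dataset. Knockdown libraries stood at 290 and 327 scaled CPM in NI and at 316 and 297 in shSCR (log2 difference -0.01 ± 0.22, limma, adjusted p = 0.983). Of the overexpression libraries NI lay at 297 and 276 and Empty at 333 and 312, without overlap but with an adjusted p of 0.233 for a log2 difference of 0.17 ± 0.11.

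Thus 2 of 4 members passed the test in shSCR against NI, where 44.5% of all genes did (22.5% higher and 22.0% lower), and 3 of 4 in Empty against NI, where 46.5% did (22.8% higher and 23.6% lower). The call depended on single libraries in the knockdown dataset: without shSCR replicate 1 the count was 1, and without shSCR replicate 2 or without NI replicate 2 it was 0. With only the shSCR and NI libraries in the fit the count stayed at 2, but *Epb41* lost its call and *Epb41l3* gained one. In the overexpression dataset the count was 2 without either Empty replicate, where *Epb41* lost its call. Scaling every library to the same sum moved the median of all genes from 0.00 to 0.13 in shSCR against NI and from 0.01 to 0.19 in Empty against NI, with 61.4% and 66.9% of called genes then higher in place of 50.6% and 49.2%. Under that scaling *Epb41l1* lost its call in the knockdown dataset and *Epb41l2* became 0.36 higher and called in the overexpression dataset.

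T7-TIA1 against Empty gave 0 of 4 members and 0 of 9472 genes (0%) at an adjusted p under 0.05 by limma, against 393 genes and 1 member at an unadjusted p under 0.05. That member was *Epb41l3*, whose T7-TIA1 libraries both lay above both Empty libraries, with a log2 difference of 0.53 ± 0.16 (adjusted p = 0.999). *Epb41l2* stood at 374 and 354 scaled CPM with T7-TIA1, also above both Empty libraries, with a difference of 0.18 ± 0.11 (adjusted p = 0.999). *Epb41* at 69.4 and 63.6 and *Epb41l1* at 49.6 and 43.7 overlapped Empty.

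**Figure D1:**
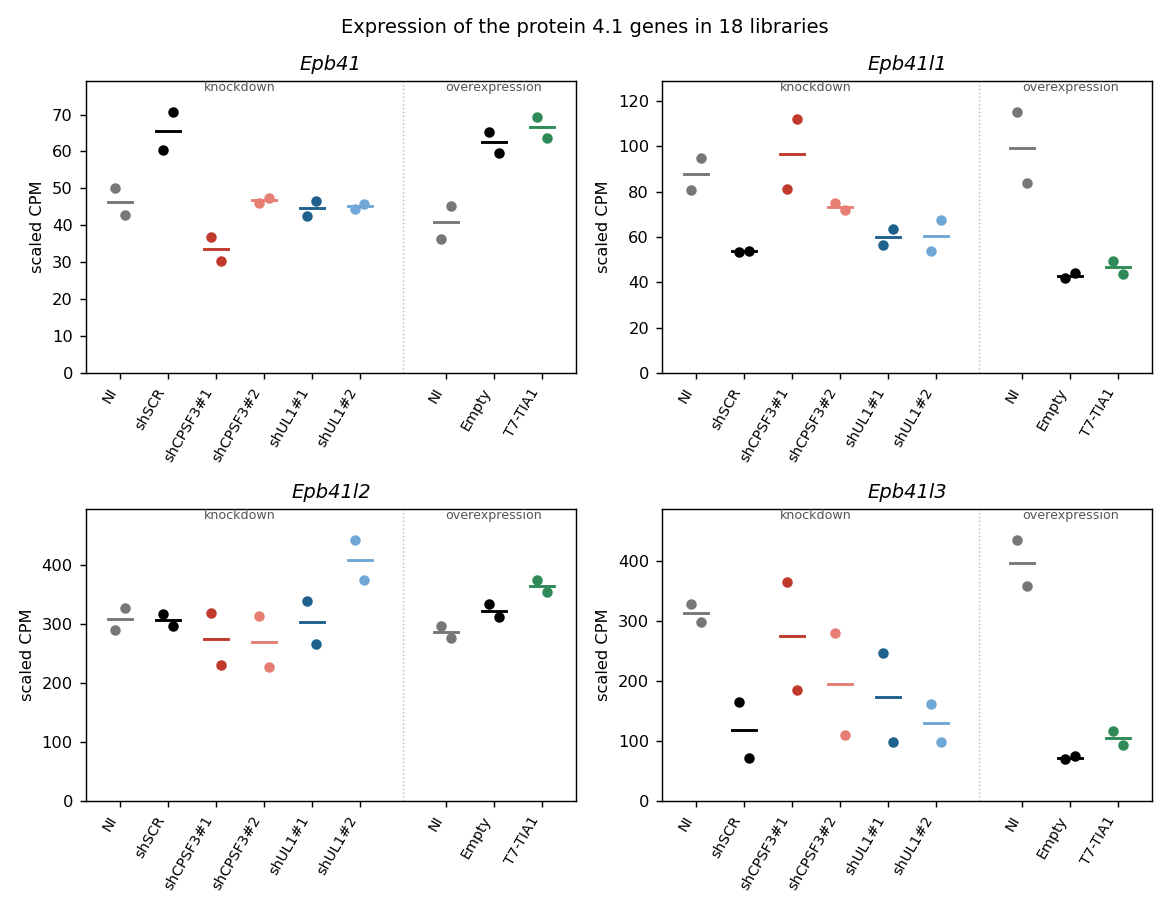
Expression of the 4 genes in scaled CPM (y axis, linear, each panel with its own range) in the 9 groups (x axis), with a point for each library and a bar at the group mean. *Epb41* lies higher at day 12 than in NI in both control groups, *Epb41l1* and *Epb41l3* lie lower, and the points of *Epb41l3* are far apart within each day 12 group of the knockdown dataset.

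With either knockdown *Epb41* stood lower than with shSCR. All 4 shCPSF3 libraries, at 36.9, 30.4, 46.1 and 47.5 scaled CPM, and all 4 shUL1 libraries, at 42.6, 46.6, 44.4 and 45.9, lay below both shSCR libraries. The mean log2 difference from shSCR was -0.71 for shCPSF3 and -0.53 for shUL1. *Epb41l1* lay above both shSCR libraries in 4 of 4 shCPSF3 libraries, at 81.1, 112, 74.8 and 71.9, and in 3 of 4 shUL1 libraries, at 56.6, 63.6, 53.7 and 67.4, with mean differences of 0.63 and 0.16. *Epb41l3* ran from 110 to 365 scaled CPM with shCPSF3, above both shSCR libraries in 3 of 4, and from 97.4 to 247 with shUL1, above both in 1 of 4, with mean differences of 0.97 and 0.36. Its replicate 1 was above its replicate 2 in all 5 day 12 groups. Within a replicate number it was above shSCR in 4 of 4 shCPSF3 libraries, at 365 and 280 against 165 and at 185 and 110 against 71.4, and in 3 of 4 shUL1 libraries. *Epb41l2* ran from 226 to 319 with shCPSF3 and from 266 to 442 with shUL1, on both sides of the shSCR libraries, with mean differences of -0.19 and 0.19. Both knockdowns were compared with the same shSCR libraries.

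The splicing table covered 269 of the 305 member events in every library, counting an event as covered from the score VLOW upward, whose lowest class needs 10 reads. Inclusion is given as PSI, the percentage of transcripts that hold the event. Over these 269 events a library held 123572 to 239236 reads, with a median of 161104. Of the 103 covered exons 65 were at a PSI of 95 or more in every group and 26 at 5 or less, so 12 exons varied in between. All 32 covered alternative 5′ splice sites were at one extreme or the other, as were 74 of 78 introns, all 74 at 5 or less. A span of at least 10 between group means in a dataset was reached by 6 exons and by 1 pair of competing 3′ splice sites, and these 7 are described next by gene.

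**Figure D2:**
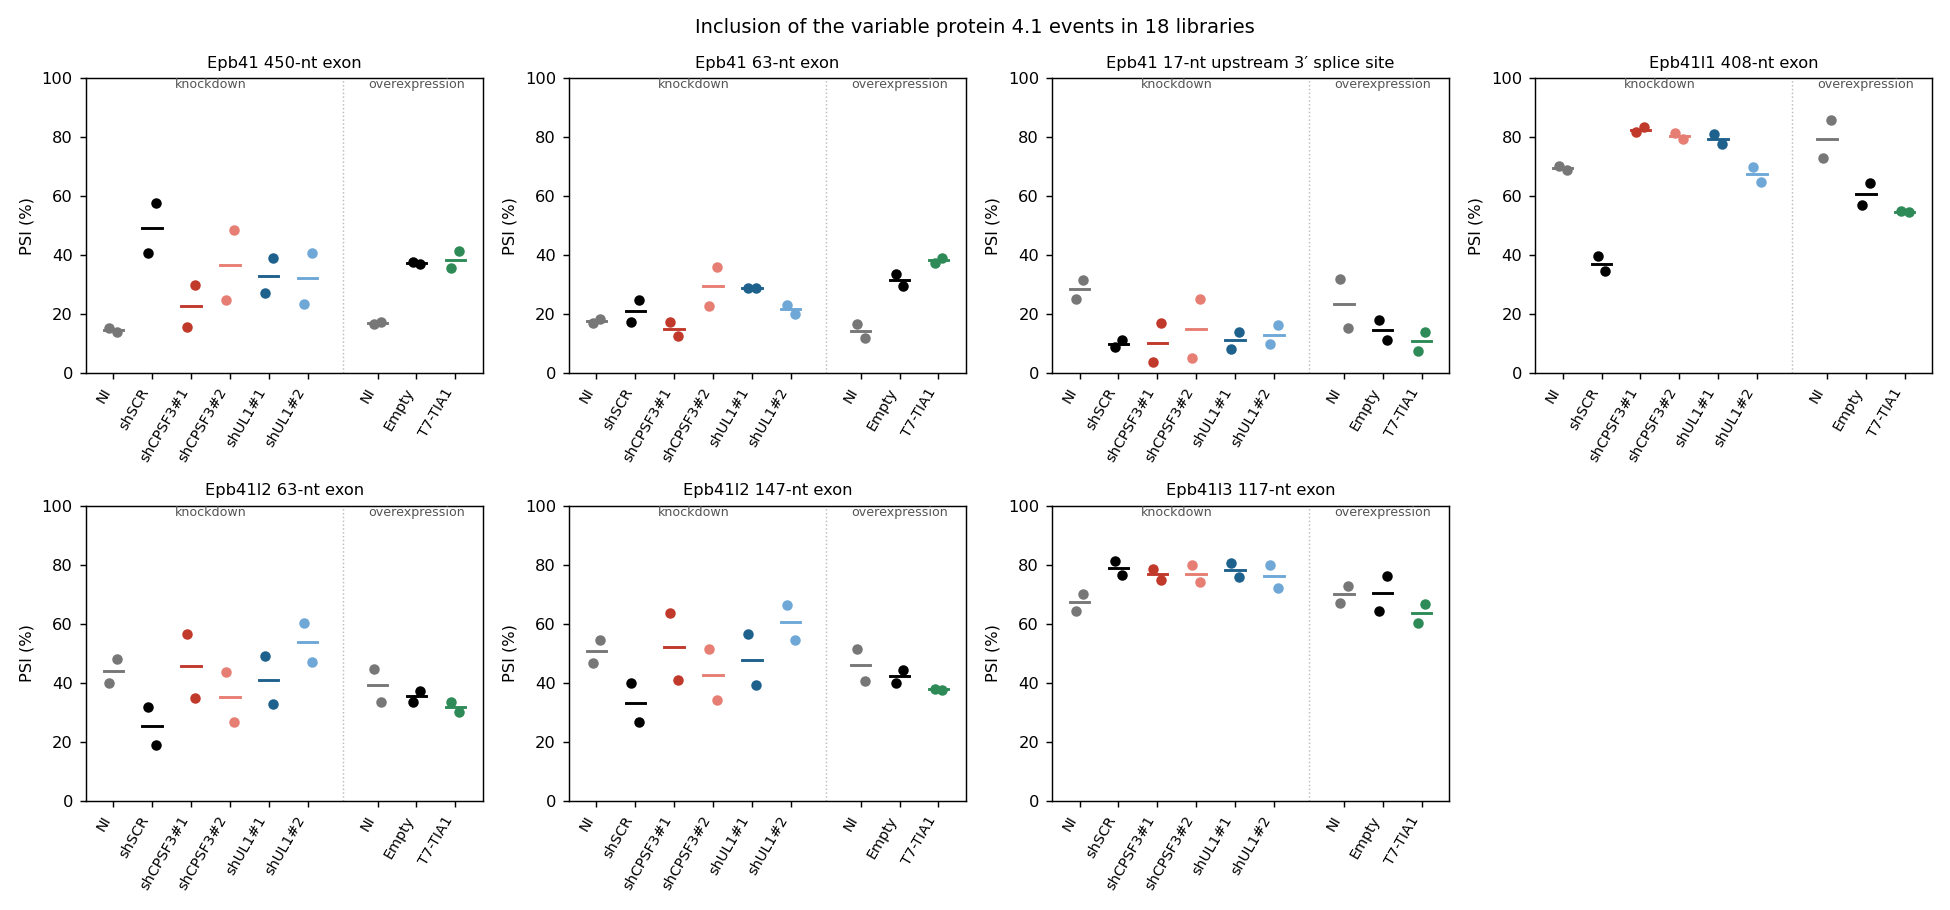
PSI (y axis, 0 to 100%) of the 7 most variable protein 4.1 events in the 9 groups (x axis), with a point for each library and a bar at the group mean. The *Epb41l1* 408-nt exon is at 34.5 and 39.7 in shSCR and at 54.7 or above in every other library.

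In *Epb41*, on the minus strand at chr4:131923413-132075321 (ENSMUSG00000028906, mm10), the event nearest the 5′ end was a choice between 3′ splice sites that lie 17 nt apart, at chr4:132006958-132007438. The upstream site adds a stretch that holds a start codon, and it is shown because the coding sequence begins at this ATG in 6 of the 8 GENCODE transcripts that use the upstream site (the remaining 2 are annotated with no coding sequence), in capitals here, 5′ to 3′ on the transcript strand (chr4:132007422-132007438).
Epb41 17-nt stretch: gaacatcATGacaacag
As background, 4.1R made from this start carries an N-terminal headpiece, and transcripts without it are read from a start codon further downstream. Use of the upstream site was 25.3 and 31.7% in knockdown NI libraries and 8.78 and 11.2% in shSCR, with no overlap. All shCPSF3 and shUL1 libraries, from 3.63 to 25.1%, also lay below both NI libraries. The fall with shSCR was 18.5 points of PSI, past the limits of the study's rule, but the read-level test did not call it (log2 odds difference -1.79 ± 0.57, limma, adjusted p = 0.0774). Overexpression libraries gave 31.8 and 15.4% in NI, 18 and 11.3% in Empty and 7.62 and 13.9% in T7-TIA1, so NI and Empty overlapped (adjusted p = 0.445). These values rest on 68.0 to 148 reads per library, the fewest of the 7 events.

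The 63-nt exon of *Epb41*, chr4:131962924-131962986, is the exon known to complete the spectrin-actin-binding domain of 4.1R and to be included as red cell precursors mature. It was fully coding in 8 of the 9 GENCODE transcripts that hold it. *Epb41l2* has a 63-nt exon of its own, chr10:25493567-25493629, the only other event of this length in the family, and 52 of 63 bases (82.5%) are the same without a gap. The pair is shown because the exons are alike in sequence and both are among the 7 events, with the identical bases in capitals, 5′ to 3′ on the transcript strand.
Epb41 63-nt exon: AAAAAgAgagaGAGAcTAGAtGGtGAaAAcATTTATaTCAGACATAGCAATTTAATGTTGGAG
Epb41l2 63-nt exon: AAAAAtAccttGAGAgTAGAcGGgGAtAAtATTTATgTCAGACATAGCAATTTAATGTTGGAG
The *Epb41* exon was at 16.8 and 11.9% in overexpression NI libraries, at 33.8 and 29.6% in Empty and at 37.5 and 39.0% in T7-TIA1. Both day 12 groups lay above NI in every library, and T7-TIA1 lay above Empty. Empty exceeded NI by 17.3 points (log2 odds difference 1.42 ± 0.33, limma, adjusted p = 0.0413). This call was lost without Empty replicate 1 (1.29), without NI replicate 1 (1.71) or 2 (1.14), with only the groups compared and on PSI in percent. T7-TIA1 against Empty did not pass (0.42 ± 0.27, adjusted p = 0.945). In the knockdown dataset NI was at 17 and 18.3% and shSCR at 17.3 and 24.9%, which overlapped (adjusted p = 0.584). The shCPSF3 libraries ran from 12.5 to 36.1% and the shUL1 libraries from 20.2 to 29.0%, so shCPSF3 overlapped both and shUL1 lay above NI. The change from NI to day 12 was not shown to differ between the datasets (interaction test chosen after seeing the data, limma, adjusted p = 0.409).

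The 450-nt exon of *Epb41*, chr4:131937015-131937464, lies nearer the 3′ end of the gene and was coding in the 1 GENCODE transcript that holds it whole. Its first 150 bases (chr4:131937315-131937464) are given because its rise passed the test in both datasets, in lower case throughout.
Epb41 450-nt exon, first 150 bases: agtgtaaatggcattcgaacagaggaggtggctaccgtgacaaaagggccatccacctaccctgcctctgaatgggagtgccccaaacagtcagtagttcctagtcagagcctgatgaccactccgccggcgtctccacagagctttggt
PSI was 15.2 and 14.1% in knockdown NI libraries and 40.9 and 57.9% in shSCR. It was 16.8 and 17.3% in overexpression NI libraries, 37.8 and 37.2% in Empty and 35.6 and 41.4% in T7-TIA1. The NI libraries of both datasets lay within a few points of each other, and all day 12 controls lay above them. The rise was 34.8 points with shSCR (log2 odds difference 2.49 ± 0.60, limma, adjusted p = 0.0367) and 20.4 points with Empty (1.52 ± 0.28, adjusted p = 0.00994), and T7-TIA1 differed from Empty by 1.03 points (adjusted p = 0.999). The shCPSF3#1 libraries were at 15.8 and 30.0%, shCPSF3#2 at 24.7 and 48.6%, shUL1#1 at 27.1 and 39.1% and shUL1#2 at 23.4 and 40.9%. All 8 lay above both NI libraries, and 7 of the 8 lay below both shSCR libraries, 1 of them by less than the rounding of these values. Replicate 2 was above replicate 1 in all 5 day 12 groups of this dataset. Within a replicate number all 8 lay below shSCR, with differences of -27.9 to -9.28 points. The ∆PSI of both shRNAs against shSCR was -19.6 (CPSF3) and -16.8 (UL1).

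In *Epb41l1* (ENSMUSG00000027624, plus strand, chr2:156420909-156543214) the 408-nt exon at chr2:156524881-156525288 is the exon whose knockdown values led to the choice of the family. It was fully coding in all 4 GENCODE transcripts that hold it, and its first 150 bases (chr2:156524881-156525030) are given in lower case because the choice of the family rests on it.
Epb41l1 408-nt exon, first 150 bases: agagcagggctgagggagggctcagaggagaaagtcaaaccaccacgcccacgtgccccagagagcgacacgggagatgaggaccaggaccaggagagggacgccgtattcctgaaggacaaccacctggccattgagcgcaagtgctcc
PSI was 70.3 and 69.0% in knockdown NI libraries and 39.7 and 34.5% in shSCR. It was 81.8 and 83.5% with shCPSF3#1, 81.4 and 79.5% with shCPSF3#2, 81.1 and 77.8% with shUL1#1 and 70.0 and 64.9% with shUL1#2. The shCPSF3 and shUL1#1 libraries lay above both NI libraries, the shUL1#2 libraries lay between and under them, and every knockdown library was at least 25.2 points above both shSCR libraries. The mean of both shRNAs was 44.5 points above shSCR for CPSF3 and 36.3 points for UL1, and 11.9 and 3.78 points above NI. Within replicate number 1 the shCPSF3 values exceeded shSCR by 42.1 and 41.7 points and within number 2 by 49.0 and 45.0. For this exon in the knockdown dataset no test is given.

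The overexpression dataset was not used to choose this exon. PSI was 73.1 and 85.8% in NI, 56.9 and 64.6% in Empty and 54.9 and 54.7% in T7-TIA1, so each later group lay below NI without overlap. The ∆PSI of Empty against NI was -18.7, past the limits of the study's rule, while the read-level test fell just short (log2 odds difference -1.33 ± 0.32, limma, adjusted p = 0.0537) and called it without NI replicate 1 alone among the single libraries left out. The difference was -1.94 without that library and -0.80 without NI replicate 2. The ∆PSI of T7-TIA1 against Empty was -5.94 (limma, adjusted p = 0.980). Over both datasets the values of this exon rest on 371 to 1201 reads per library.

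In *Epb41l2* (ENSMUSG00000019978, plus strand, chr10:25359798-25523519) the 63-nt exon shown above and a 147-nt exon at chr10:25495445-25495591 follow each other across an intron of 1815 nt. The same 3 GENCODE transcripts hold both, and both are coding. The 147-nt exon is shown because its inclusion ran beside that of its neighbour in every library.
Epb41l2 147-nt exon: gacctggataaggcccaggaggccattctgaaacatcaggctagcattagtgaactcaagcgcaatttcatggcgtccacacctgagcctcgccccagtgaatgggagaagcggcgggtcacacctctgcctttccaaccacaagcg
The PSI of the 147-nt exon was above that of the 63-nt exon in 18 of 18 libraries, by 4.51 to 7.89 points. The 63-nt exon was at 40.0 and 48.1% in knockdown NI libraries and at 32.0 and 18.9% in shSCR, a ∆PSI of -18.6 without overlap (log2 odds difference -1.23 ± 0.59, limma, adjusted p = 0.272), which was -1.75 without shSCR replicate 1 and -0.74 without shSCR replicate 2. The 147-nt exon was at 46.7 and 54.7% and then at 39.9 and 26.6%, a ∆PSI of -17.4 (log2 odds difference -1.06 ± 0.57, limma, adjusted p = 0.329), with -1.50 and -0.63 without the same libraries. Both met the study's rule and neither passed the read-level test, with 1105 to 2606 reads behind each value. In the overexpression dataset the 63-nt exon was at 44.7 and 33.6% in NI, 33.5 and 37.4% in Empty and 33.6 and 30.2% in T7-TIA1, which overlapped (adjusted p = 0.727 for Empty against NI and 0.986 for T7-TIA1 against Empty). The 147-nt exon was at 51.6 and 40.6% in NI, 39.9 and 44.5% in Empty and 38.1 and 37.7% in T7-TIA1. Its T7-TIA1 libraries lay below all libraries of both other groups, with a ∆PSI of -4.34 against Empty (limma, adjusted p = 0.980).

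With the knockdowns the 63-nt exon of *Epb41l2* stood at 56.6 and 35.0% in shCPSF3#1, 43.8 and 26.8% in shCPSF3#2, 49.3 and 33% in shUL1#1 and 60.5 and 47.0% in shUL1#2. Means were 15.1 points (CPSF3) and 22.0 points (UL1) above shSCR, and for the 147-nt exon 14.3 and 21.0 points. Replicate 1 was above replicate 2 in all 5 day 12 groups for both exons. Within a replicate number every knockdown library was above shSCR, by 7.85 to 28.6 points for the 63-nt exon and 7.50 to 27.9 points for the 147-nt exon, whereas across numbers the second shCPSF3#2 library lay below the first shSCR library for both exons. For the 147-nt exon the second shUL1#1 library, at 39.2%, also lay below the first shSCR library, at 39.9%, so that shUL1#1 overlapped shSCR there.

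**Figure D3:**
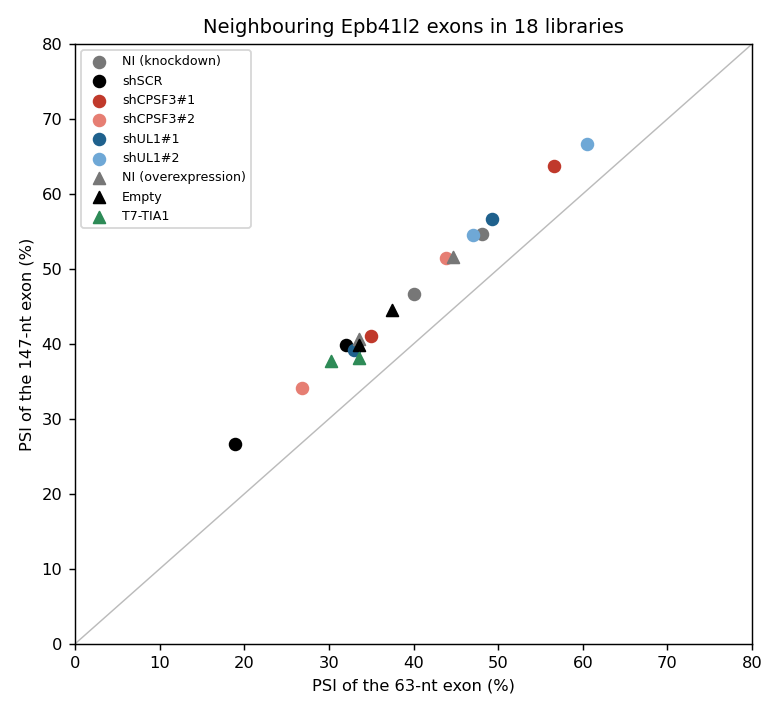
PSI of the 147-nt exon of *Epb41l2* (y axis, %) against that of the neighbouring 63-nt exon (x axis, %), with a point for each of the 18 libraries and a grey line of equal values. Every point lies above the line by 4.51 to 7.89 points, with the second shSCR library lowest and the first shUL1#2 library highest.

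In *Epb41l3* (ENSMUSG00000024044, plus strand, chr17:69075683-69289989) a 117-nt exon at chr17:69287612-69287728 is held whole by 4 GENCODE transcripts, and in 3 of them it carries the last 108 coding bases before a stop codon, so it forms the end of the protein there. PSI was 64.4 and 70.3% in knockdown NI libraries and 81.4 and 76.7% in shSCR, a rise of 11.7 points without overlap (log2 odds difference 0.89 ± 0.24, limma, adjusted p = 0.0385). The 8 knockdown libraries, from 72.2 to 80.8%, also lay above NI, with a ∆PSI against shSCR of -2.08 (CPSF3) and -1.80 (UL1). The overexpression dataset gave 67.3 and 73.0% in NI, 64.5 and 76.3% in Empty and 60.5 and 66.7% in T7-TIA1. Empty overlapped both other groups, and T7-TIA1 lay below NI (Empty against NI, limma, adjusted p = 0.976, and T7-TIA1 against Empty, adjusted p = 0.916). The change from NI was not shown to differ between the datasets (interaction, limma, unadjusted p = 0.0433, adjusted p = 0.477). These values rest on 641 to 4086 reads per library.

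**Figure D4:**
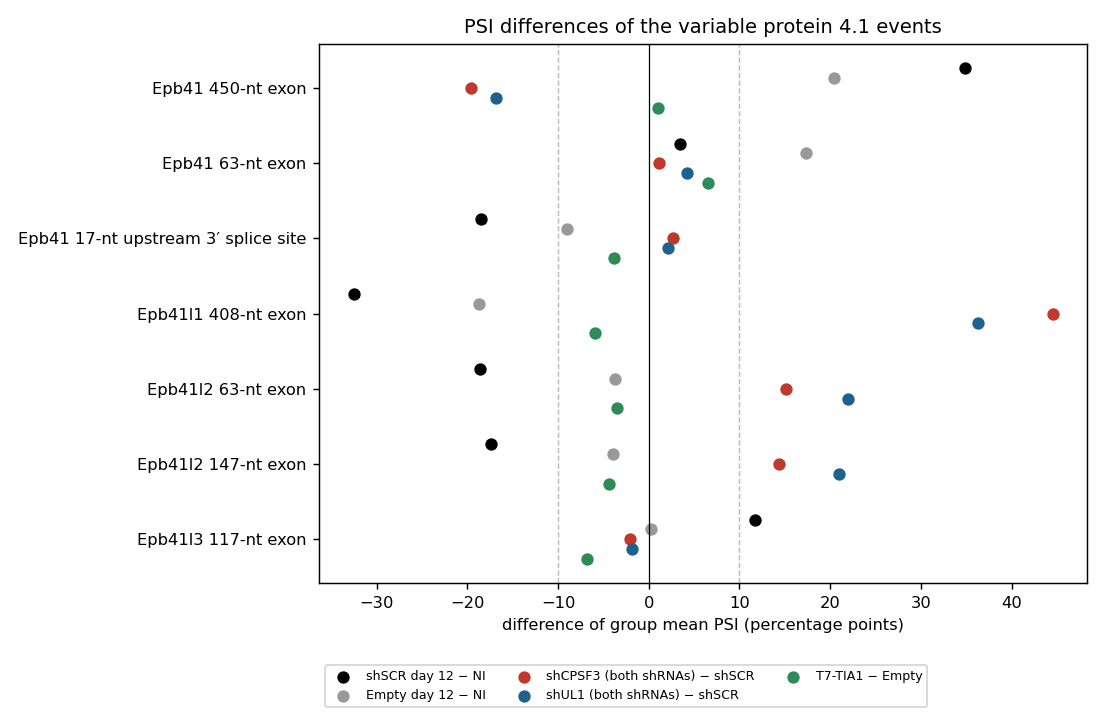
Difference of group mean PSI in percentage points (x axis) for the 7 events (y axis), with a point for each of 5 comparisons and dashed lines at 10 points. The shSCR and Empty points lie on one side of 0 for the *Epb41* 450-nt and the *Epb41l1* 408-nt exon, and the shCPSF3 and shUL1 points, which share the shSCR libraries, lie on the other. By sign this also holds for the other events except the *Epb41* 63-nt exon, though with points nearer 0. The Empty points of the *Epb41l2* exons are at -3.75 and -3.91, and that of the *Epb41l3* exon is at 0.205.

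By the study's rule, a difference of at least 10 points between group means with at least 5 between any libraries of the groups, 7 of 270 member events differed between shSCR and NI, where 1.22% of all covered events did. They were the *Epb41* 450-nt exon and *Epb41l3* 117-nt exon (higher), the *Epb41l1* 408-nt exon and both *Epb41l2* exons (lower), and the *Epb41* 3′ splice site pair, which counts as 2 events. Of them the *Epb41l1* exon shares the shSCR libraries with the values that chose the family. Between Empty and NI 3 of 270 differed, against 0.679% of all events: the *Epb41* 450-nt and 63-nt exons and the *Epb41l1* exon. Without replicate 2 that count was 7. The read-level test called 5 of 102 member events in shSCR against NI, with the *Epb41l1* exon left untested, beside 6.05% of all events, and 2 of 87 in Empty against NI beside 1.22%. The count in shSCR against NI was 1 without either shSCR replicate and 0 without either NI replicate. In Empty against NI it was 0 without Empty replicate 1 or NI replicate 2, 1 without NI replicate 1 and 3 without Empty replicate 2. The *Epb41* 450-nt exon kept its call only without shSCR replicate 1 in the knockdown dataset and only without Empty replicate 2 in the other, and the *Epb41l3* 117-nt exon lost its call whichever single library of its groups was left out. All calls of these exons were also lost on PSI in percent.

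The other 3 read-level calls in shSCR against NI were introns at low levels. The intron before the *Epb41l2* 63-nt exon, chr10:25489094-25493566, was retained at 0.885 ± 0.276% in NI and 2.76 ± 0.127% in shSCR (SD, n = 2, limma, adjusted p = 0.0134). The intron after the *Epb41l3* 117-nt exon, chr17:69287729-69288850, was at 1.77 ± 0.0212% and 3.81 ± 0.537% (adjusted p = 0.0165). Another *Epb41l3* intron, chr17:69270665-69273881, was at 3.10 ± 0.233% and 6.85 ± 0.735% (adjusted p = 0.0319) with a mean of 11.3% in shUL1#1. All 3 were higher at day 12 and stayed a small share of transcripts. None of the 3 kept its call without shSCR replicate 1 or without either NI replicate.

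An event was counted as dependent on CPSF3 or UL1 where the mean of both shRNAs differed from shSCR by at least 10 points and each shRNA had a difference by the rule above in some pair among NI, shSCR and that shRNA. This definition is not the paper's, which kept only events that both shRNAs picked out and counted fewer. By the definition used here 4 of 269 member events depended on CPSF3 and 4 of 270 on UL1. Over all events 2205 (0.588%) and 1884 (0.498%) did. They were the same 4 exons, the *Epb41* 450-nt exon (lower with knockdown) and the *Epb41l1* 408-nt and both *Epb41l2* exons (higher), and as the contrast chose the family nothing is read from the shares. Taken alone, shCPSF3#2 differed from shSCR by 9.82 and 9.55 points for the 63-nt and 147-nt *Epb41l2* exons, so their count as CPSF3-dependent rests on the mean of both shRNAs. For TIA1, with Empty as the control, 0 of 270 members met the like rule, where 0.330% of all events did, and the limma read-level test called 0 of 87 (0.0725% of all events), against 10 of 87 members and 6.02% of all events at an unadjusted p under 0.05. With 1 library in each group the TIA1 count was 1 without replicate 1 and 3 without replicate 2.

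Below the limit of 10 points, T7-TIA1 cells had the highest group mean for 4 of the 6 remaining intermediate exons, which were singled out after their values were seen. The *Epb41l3* 75-nt exon, chr17:69281033-69281107, was at 8.80 and 9.07% in NI, 6.99 and 4.63% in Empty and 16.1 and 12.9% in T7-TIA1. It lay 8.69 points above Empty without overlap (log2 odds difference 1.40 ± 0.32, limma, adjusted p = 0.214). The *Epb41l3* 123-nt exon, chr17:69283885-69284007, was at 13.1 and 12.8% in NI, 12.2 and 14.7% in Empty and 24.9 and 19.8% in T7-TIA1 (8.91 points above Empty, adjusted p = 0.487). The *Epb41* 57-nt exon, chr4:131964131-131964187, was at 2.80 and 1.79% in Empty and 9.09 and 9.27% in T7-TIA1 (adjusted p = 0.357). The *Epb41l2* 54-nt exon, chr10:25501578-25501631, was at 4.58 and 3.21% and at 7.54 and 5.23% (adjusted p = 0.742). In all 4 both T7-TIA1 libraries lay above both Empty libraries, and none passed the adjusted test.

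The genes of the wider membrane skeleton were taken as lists, whose counts stand beside 22.5% of all genes higher and 22.0% lower in shSCR against NI and 22.8% and 23.6% in Empty against NI. Of 13 listed spectrin skeleton genes (of 23), 2 rose and 8 fell in shSCR against NI, with a median log2 difference of -0.62 beside 0.00 over all genes. In Empty against NI 1 rose and 6 fell, with a median of -0.23. With libraries scaled to the same sum 2 rose and 7 fell (median -0.49) in shSCR and 2 rose and 5 fell (median -0.04) in Empty. The largest falls were in actin and its partner tropomyosin. *Tpm1* went from 3254 ± 166 to 628 ± 204 scaled CPM (SD, n = 2, limma, adjusted p = 0.00114), *Actg1* from 2758 ± 80.7 to 892 ± 113 (adjusted p = 1.34e-04) and *Actb* from 6191 ± 315 to 2036 ± 50.1 (adjusted p = 1.95e-04). In Empty their log2 differences were -2.79, -1.51 and -1.19, and all passed there too.

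The 9 listed FERM relatives of 11 moved in both directions, with 4 higher and 3 lower in shSCR against NI (median 0.53, or 0.67 with equal sums and the same counts), where 22.5% of all genes were higher and 22.0% lower. *Epb41l4b* and *Epb41l5*, more distant members of the same FERM superfamily, went from 1.69 ± 0.692 to 20.1 ± 6.80 and from 3.84 ± 0.0482 to 27.8 ± 2.25 scaled CPM, and *Msn*, which encodes moesin, from 1707 ± 184 to 351 ± 114. In Empty 3 of 7 were higher and 4 lower (median -0.48), or 3 and 3 with equal sums (median -0.29), with *Ezr*, which encodes ezrin, going from 54.8 ± 17.1 to 225 ± 31.6. Of 10 listed partners of the family 1 rose and 2 fell in shSCR (median -0.25), and 1 of 9 rose and 3 fell in Empty (median -0.54). These called shares lay below the 44.5% and 46.5% of all genes. With equal sums 2 rose and 2 fell in both comparisons (medians -0.11 and -0.36). The hyaluronan receptor gene *Cd44* went from 1050 ± 58.1 to 292 ± 112 in shSCR, the adhesion gene *Cadm1* from 6.27 ± 0.916 to 37.9 ± 24.0, and the scaffold gene *Cask* from 78.9 ± 0.323 to 47.7 ± 3.0 in shSCR and from 103 ± 9.39 to 48.3 ± 4.88 in Empty.

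Among 11 listed splicing regulators of 13, 0 rose and 3 fell in shSCR against NI (median -0.33), near the 22.0% of all genes that fell, and with equal sums 1 fell (median -0.19). *Mbnl1* went from a mean of 303 to 111 scaled CPM (log2 difference -1.46 ± 0.20, limma, adjusted p = 7.99e-04). *Ptbp2* and *Rbfox2* had differences of -0.56 and -0.40 and lost their calls when libraries were scaled to the same sum (adjusted p = 0.129 and 0.0988). In Empty 0 rose and 2 fell, *Mbnl1* by 0.89 and *Mbnl2* by 0.78 on the log2 scale, and the list's median was -0.08, or 0.10 with equal sums. *Esrp1* and *Esrp2* were not listed. In T7-TIA1 against Empty 0 genes of the 4 lists passed by limma, with 2 spectrin skeleton genes and 2 regulators at an unadjusted p under 0.05.

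As a description, the genes whose expression was most like that of a member over the 12 knockdown libraries, which share their normalization, were *Igf2bp2* (Pearson r = 0.97), *Eif3f* (0.96) and *Vps54* (0.96) for *Epb41*, and *Sh3bgrl3* (0.94) and *Selenom* (0.93) for *Epb41l1*. For *Epb41l2* they were *Lima1* (0.87), *Meis1* (0.87) and *Dusp1* (0.85), and for *Epb41l3* *Herpud1* (0.98), *Ptgr1* (0.97) and *Surf4* (0.97). Among 3708 variable cassette exons over the 18 libraries, those most like the *Epb41l1* 408-nt exon were exons of *Cast* (r = 0.90), *Ccser2* (0.89) and *Flnc* (0.89). The *Cast* exon was at 27.3% in NI, 11.3% in shSCR, 30.0% over the shCPSF3 and 26.9% over the shUL1 groups. For the *Epb41* 63-nt exon the nearest were exons of 2310015A10Rik (0.84), *Dst* (0.83) and *Ssbp3* (0.83).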

How the data were processed

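Stranded RNA-seq of 18 libraries (2 per group) was used. The authors mapped reads with STAR 2.7.1a to mm10 and deposited a signal, CPM from edgeR 3.16.5 scaled per library (scaled CPM), in 1 table per dataset, keeping genes at the study's minimum level and variability. They deposited PSI in percent per event and library from vast-tools in strand-specific mode, with coverage scores and reads as text (per the file headers). The tables of the datasets were filtered and scaled separately and were fitted separately.

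Expression was tested with limma 3.58.1 on log2(scaled CPM + 1), all groups of a table sharing the spread. Events were tested with limma on log2((inclusion reads + 1)/(exclusion reads + 1)), weighted by counting error plus 0.05, with at least 10 inclusion and 10 exclusion reads summed over the dataset. Tests were two-sided with Benjamini-Hochberg adjustment over the whole table. Nothing in the labels says that the 2 libraries of a group came from separate cultures or embryos, so p-values measure the spread between libraries, which may be technical. An exact permutation test of 2 against 2 libraries cannot go below p = 0.333 and was not used. Both tests were tested on simulated data, the read-level test on reads of the overexpression dataset alone. The outcome is not reported here and is not used as support. Sequences and exon positions came from GENCODE vM21, on the same build. Events are named where group means span at least 10 points. Of a list, at most the 3 called genes with the largest change are named, and at most 3 like genes or exons per member or exon, of which 1 is not reported here. Alternatives changed the added constant, groups in the fit, scaling, low-value filter, coverage score, ∆PSI limits and libraries. The members and lists were chosen with earlier results of these data known.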

Additional observations from a re-analysis of the deposited data

How the results depend on the processing

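The 5 member expression values that passed the test kept their call in 41 of 50 alternatives and lost it in 9. The 4 exon values that passed the read-level test lost their call in 19 of 32 and kept it in 13. None of these 9 values changed sign. With libraries scaled to the same sum, the members called in expression in shSCR against NI went to 1, and *Epb41l2* to 0.13 on the log2 scale. Leaving out 1 library gave 0 to 2 called members in shSCR against NI and 2 to 3 in Empty against NI, and an *Epb41l2* difference of -0.09 to 0.08 in shSCR against NI. For the ∆PSI rules, leaving out a replicate number gave 3 to 7 events in Empty against NI and 1 to 3 TIA1-dependent events. The read-level count in shSCR against NI was 8 with only the groups compared, where the *Epb41* 17-nt choice gained its call and the *Epb41l3* 117-nt exon lost it, 2 on PSI in percent and 0 to 1 without 1 library. In Empty against NI it was 1, 0 and 0 to 3. Without 1 library the log2 odds difference ranged from -0.04 to 0.61 for the *Epb41* 63-nt exon in shSCR against NI. In Empty against NI it ranged from -0.56 to 0.12 and from -0.55 to 0.1 for the *Epb41l2* 63-nt and 147-nt exons and from -0.38 to 0.44 for the *Epb41l3* 117-nt exon. In T7-TIA1 against Empty it ranged from -0.11 to 0.23 for the *Epb41* 450-nt exon. The cause of these changes was not tested.

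The libraries share replicate numbers, but nothing in the labels says what a number marks. Over 11 pairs of day 12 groups, deviations of same-numbered libraries correlated at 0.67 to 0.95 within the knockdown dataset and at 0.19 between Empty and T7-TIA1. Over 7 pairs with NI they correlated at -0.13 to 0.31. With the replicate block the read-level count in shSCR against NI was 11, and the *Epb41* 17-nt choice, both *Epb41l2* exons and *Epb41l3* expression passed there, as did the *Epb41l1* exon in Empty against NI. A count test with edgeR was not run, because whole reads could not be recovered from the filtered tables. The reads behind the *Epb41* events, 68.0 to 148 for the 17-nt choice, limit their precision.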
